A study of Mus musculus with 3 samples.

Results

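The genes described here are 9 membrane-anchored or epithelial serine proteases (Tmprss2, Tmprss4, Tmprss11a, Tmprss11d, Tmprss11e, Tmprss11f, St14, Prss8 and Prss22) and Spint1, which encodes an inhibitor of such enzymes. The members were the non-control probes whose accession is a transcript of these 10 genes, of 20655 genes named on the array, and the set was chosen by the measured ratios of Tmprss11f, which was higher on both knockout arrays than on the wildtype array. They were covered by 13 probes, since Tmprss11f, Prss8 and Spint1 had 2 probes each. The study compared cells labelled as mouse embryonic stem cells (mESCs) of 3 genotypes, LIFR KO, gp130 KO and wildtype, grown in standard culture, with 1 single-colour Agilent array for each. LIFR binds the cytokine LIF, a usual supplement of stem cell cultures, and gp130, encoded by Il6st, pairs with LIFR to signal. The sources used here do not give the strain, how the knockouts were made or whether each line is 1 clone. With 1 array per genotype there was no test and no measure of the spread between cultures, so every difference below is a difference between 2 arrays.

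Membrane serine proteases carry their catalytic domain on the outside of the cell, either behind a transmembrane segment, as in the TMPRSS family and matriptase (St14), or on a lipid anchor, as in prostasin (Prss8). They are made as inactive precursors and are switched on by cleavage. In epithelia, matriptase and prostasin act in a linked cascade that is known for barrier formation and for cleaving epithelial sodium channel and growth factor precursors, and the Kunitz-type inhibitor encoded by Spint1 holds matriptase in check. The Tmprss11 genes lie next to each other on mouse chromosome 5 and encode proteases known mainly from airway and squamous epithelium.

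Promoter sequence is shown for the Tmprss11 members for which the RefSeq table of build GRCm38.p6 held one, because Tmprss11f differed between the arrays while its relatives Tmprss11d and Tmprss11a were not detected. Each run gives the 250 bases before the annotated start, 5′ to 3′ on the gene's own strand, which is the minus strand in all 3 cases. Capitals mark matches to the searched motifs. The Tmprss11f run is chr5:86632425-86632674, the Tmprss11d run chr5:86373388-86373637 and the Tmprss11a run chr5:86468991-86469240.
Tmprss11f: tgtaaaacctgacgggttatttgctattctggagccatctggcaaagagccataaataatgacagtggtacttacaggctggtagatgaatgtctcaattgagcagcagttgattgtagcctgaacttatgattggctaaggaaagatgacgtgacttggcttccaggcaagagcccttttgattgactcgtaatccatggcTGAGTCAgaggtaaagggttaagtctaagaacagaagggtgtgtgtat
Tmprss11d: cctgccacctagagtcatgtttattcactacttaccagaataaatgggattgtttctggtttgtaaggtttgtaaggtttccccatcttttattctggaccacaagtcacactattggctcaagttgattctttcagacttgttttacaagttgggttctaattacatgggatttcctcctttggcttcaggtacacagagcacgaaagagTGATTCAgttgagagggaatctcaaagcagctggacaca
Tmprss11a: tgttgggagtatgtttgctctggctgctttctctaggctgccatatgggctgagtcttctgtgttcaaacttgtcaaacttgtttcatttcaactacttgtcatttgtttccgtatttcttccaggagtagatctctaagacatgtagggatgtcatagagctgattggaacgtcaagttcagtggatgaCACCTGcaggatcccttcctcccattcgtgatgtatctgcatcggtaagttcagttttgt

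The search covered both strands for 6 motifs, the STAT word TTCNNNGAA, the grainyhead word AACCNGTT, the E2 box word CAGGTG, the TATA box word with letters TATAAA, the GC box word with letters GGGCGG, and the AP-1 word, which is TGA and TCA with any base between. Tmprss11f held 1 match, an AP-1 word from 48 to 42 bases before the start, and Tmprss11d also held 1, from 39 to 33 bases before its start. Of 32851 RefSeq promoters of this length, 6.75% held an AP-1 word. Tmprss11a held an E2 box word from 60 to 55 bases before its start, a word found in 17.2% of promoters. None of the 3 held the STAT word, which was found in 7.02% of promoters, the TATA box word, found in 12.4%, or the grainyhead word, found in 1.79%, and no matches overlapped. A match is a description of the letters and not a binding site. Of the 10 members, 5 had a promoter in the table, and of the other two, Tmprss2 had no match and Spint1 had 3 GC box words, a word found in 32.7%.

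Of the 10 genes, 6 were well above background on all 3 arrays (60%, against 63.6% of all named genes), namely Tmprss11e, Tmprss11f, St14, Prss8, Prss22 and Spint1. Tmprss2, Tmprss4, Tmprss11a and Tmprss11d were well above background on no array. A spot is called well above background by a flag of the scanner software, and the lowest signal of a probe so called was 16.7 on the LIFR KO, 9.66 on the gp130 KO and 10.5 on the wildtype array, so the LIFR KO array detected somewhat less. Signals are the scanner software's processed signals in its own units. Ratios were taken after each array was divided by its 75th percentile, 749.9 on the LIFR KO, 652 on the gp130 KO and 664 on the wildtype array. The error of a ratio is the one the software gives for each spot, and it leaves out the spread between cultures. Precision is limited by having 3 arrays. Fewer cells of a type and less RNA per cell cannot be told apart in such bulk samples.

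**Figure D1:**
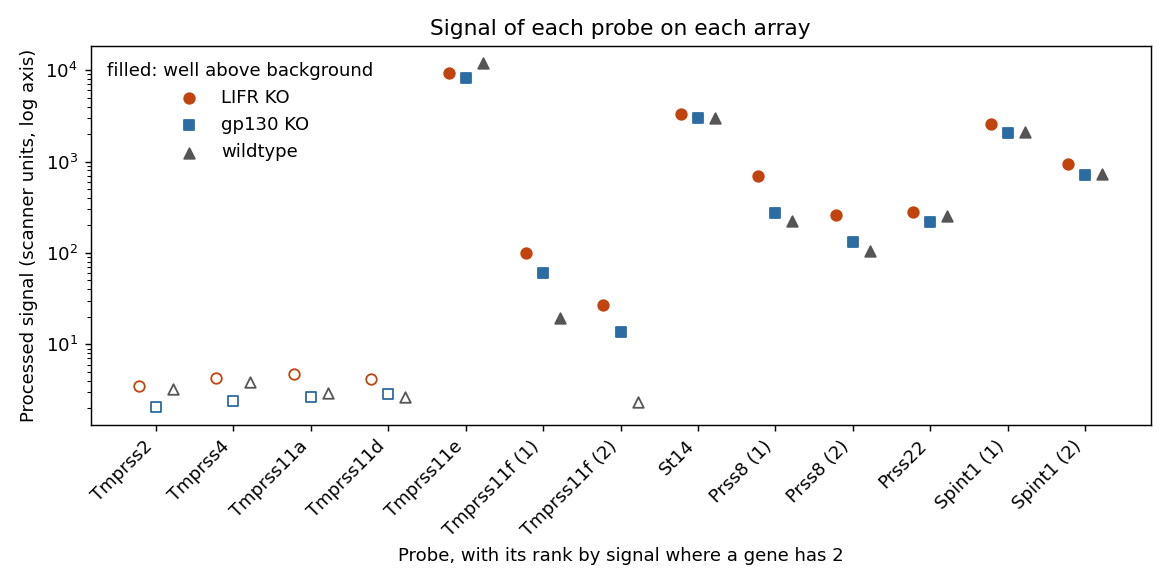
Processed signal (scanner units, log axis) of each of the 13 probes on the LIFR KO, gp130 KO and wildtype arrays, with filled points well above background and open points not; heights of different probes are not comparable. Both Tmprss11f probes and both Prss8 probes are highest on the LIFR KO array, while Tmprss2, Tmprss4, Tmprss11a and Tmprss11d are open on every array.

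Detection covered 58.3%, 65.4% and 64.3% of 39429 probes on the LIFR KO, gp130 KO and wildtype arrays. The probes of the knocked-out genes did not separate the genotypes. The detected Lifr probe gave 29.97 on the LIFR KO array, 34.7 on the gp130 KO array and 34.9 on the wildtype array, and the Il6st probe, for gp130, gave 369, 299 and 329 on the same arrays. The position of either probe relative to the change made in its gene is unknown here, so each array is called by its label. On the LIFR KO array 909 spots had stray signal around them, with a local background of up to 25884 against a median of 23.5. No member spot was among them, the local background of the member spots being 18 to 27.5 on that array, and no member spot was marked as an outlier or saturated.

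Markers went against the stem cell label in part. Of 10 embryonic stem cell markers, 6 were well above background on all 3 arrays, with Lin28a at 536, 821 and 727 and Tdgf1 at 632, 477 and 508 on the LIFR KO, gp130 KO and wildtype arrays, and Sox2, Zfp42, Dppa3 and Fgf4 were so on none. In the same order, Nanog gave 217, 329 and 316, Dppa5a 82.8, 101 and 52.2, and Esrrb 42.7, 49.0 and 50.3. Pou5f1, also detected, gave only 22.7, 20.3 and 31.2, where the lowest detected signals were 16.7, 9.66 and 10.5. All 10 epithelial markers were detected on all 3 arrays, with Krt18, a simple epithelial keratin, at 50636, 41452 and 39533, while Cdh1 for E-cadherin stood at 11916, 9836 and 9179. Of 12 squamous epithelial markers 7 were detected on all arrays, among them the basal keratin gene Krt14 at 1436, 1634 and 1493 and the p63 gene Trp63 at 1340.1, 1125 and 1243, while Krt1, Krt4, Krt6a, Ivl and Dsg3 were detected on none. Another Trp63 probe was not well above background on any array. Of 10 fibroblast markers 5 were detected on all arrays, with Vim at 87779, 83486 and 73043 and Fn1 at 46247, 41279 and 39353.5, and Pdgfrb and Lum on none.

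Tmprss11f was the member with the highest ratio in both knockouts. It encodes a transmembrane protease related to the airway trypsin-like protease. Its brighter probe gave 101 ± 11.1 on the LIFR KO array, 59.9 ± 6.54 on the gp130 KO array and 19.4 ± 3.51 on the wildtype array, each with the scanner error. The LIFR KO array was the highest and the wildtype array the lowest, beyond the scanner error of each. The gene was chosen for this pattern, so its ratios are descriptions. The LIFR KO over wildtype ratio was 4.60-fold, a log2 ratio of 2.20 with a 95% interval of 1.61 to 2.80 from scanner error. The gp130 KO over wildtype ratio was 3.14-fold, a log2 ratio of 1.65 with an interval of 1.05 to 2.25. Of all genes compared, 0.33% lay at or above this ratio in the LIFR KO and 0.255% in the gp130 KO. Both ratios share the wildtype array, whose low value enters each of them.

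The other Tmprss11f probe was dimmer and had the same order. It gave 26.8 ± 4.55 on the LIFR KO array and 13.6 ± 2.52 on the gp130 KO array, and it was not well above background on the wildtype array at 2.37 ± 2.36. Against the lowest detected signal of the wildtype array, it was at least 2.26-fold higher on the LIFR KO array and at least 1.32-fold higher on the gp130 KO array. A bound of this kind says nothing of how far above it the ratio lies. Directly between the knockout arrays, the gp130 KO was lower than the LIFR KO, with a log2 ratio of -0.55 (95% scanner interval -0.99 to -0.11) for the brighter probe and of -0.78 (-1.49 to -0.06) for the dimmer one. The size of these ratios changed with the background correction and the offset added with it. With normexp, a model-based correction used with an offset of 50, the brighter probe's log2 ratio was 2.02 for the LIFR KO over wildtype, 0.51 for the gp130 KO over wildtype and -1.51 for gp130 KO over LIFR KO. Fitted without the stray signal, it was 0.70, 0.50 and -0.21 for the same comparisons, under 2-fold in each, and 2.21% and 1.49% of genes lay at or above it in the LIFR KO and the gp130 KO.

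**Figure D2:**
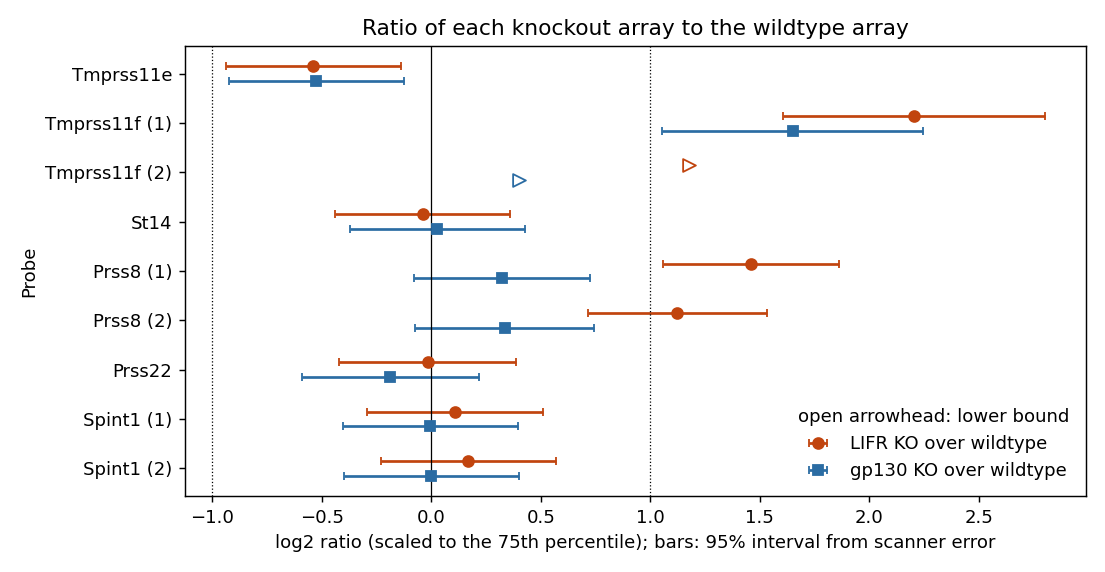
Log2 ratio of the LIFR KO and gp130 KO arrays to the wildtype array for each probe detected on at least 1 array, with bars for the 95% interval from scanner error, open arrowheads for lower bounds and dotted lines at 2-fold. Tmprss11f lies to the right for both knockouts, Prss8 lies beyond 2-fold for the LIFR KO, and Tmprss11e lies to the left for both.

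Its neighbours on chromosome 5 did not show the same values. In the gene table the run holds 7 genes in the order Tmprss11c, Tmprss11d, Tmprss11a, Tmprss11g, Tmprss11f, Tmprss11b and Tmprss11e. Tmprss11g, on one side, gave 18.7 on the LIFR KO array, where it was not well above background, 16.6 on the gp130 KO array and 13.6 on the wildtype array. Its gp130 KO over wildtype log2 ratio was 0.32 with a scanner error of 0.40. Tmprss11b, on the other side and named here after its values were seen, was not well above background on any array, at 3.52, 2.99 and 2.23 on the LIFR KO, gp130 KO and wildtype arrays. Tmprss11c, at the far end of the run, was not detected on any array either.

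Tmprss11d, which encodes the airway trypsin-like protease, gave 4.16 on the LIFR KO array, 2.84 on the gp130 KO array and 2.67 on the wildtype array, none of them well above background. Tmprss11a gave 4.70, 2.69 and 2.97 in the same order of arrays. No ratio was formed for these genes, and a level under the detection limit is not shown to be absent. Both belong to the run on chromosome 5 with the promoters printed above, and an AP-1 word was in the promoter of the undetected Tmprss11d as well as in that of Tmprss11f.

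Tmprss11e, at the end of the run, was lower in both knockouts. It encodes a protease also known as DESC1. It gave 9273 ± 927 on the LIFR KO array, 8134 ± 813 on the gp130 KO array and 11932 ± 1193 on the wildtype array, so the wildtype array was the highest. The ratio was 1.45-fold lower in the LIFR KO (log2 -0.54, 95% scanner interval -0.94 to -0.14) and 1.44-fold lower in the gp130 KO (log2 -0.53, -0.93 to -0.13). Neither reached 2-fold, and 9.03% and 4.07% of all genes compared lay at or below these ratios in the LIFR KO and the gp130 KO. The knockouts differed from each other by a log2 ratio of 0.01 (-0.39 to 0.41) for gp130 KO over LIFR KO. Tmprss11f and Tmprss11e, members of 1 gene cluster, thus lay on opposite sides of the wildtype array in both knockouts.

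**Figure D3:**
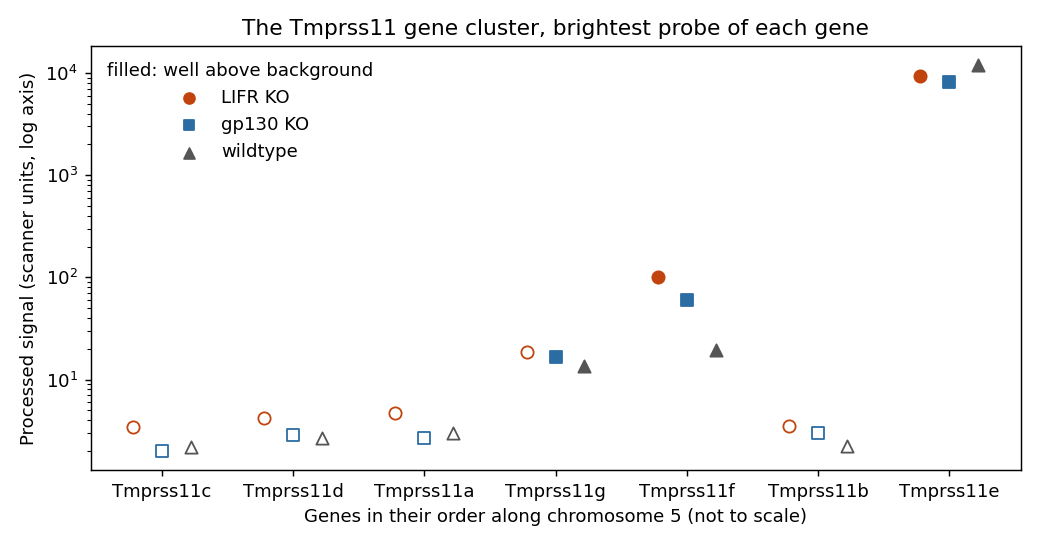
Processed signal (scanner units, log axis) of the brightest probe of each of the 7 Tmprss11 genes in their order along chromosome 5, on the LIFR KO, gp130 KO and wildtype arrays, with filled points well above background and open points not; heights of different probes are not comparable. Tmprss11f is highest on the LIFR KO array and lowest on the wildtype array, Tmprss11e is highest on the wildtype array, and Tmprss11c, Tmprss11d, Tmprss11a and Tmprss11b are open throughout.

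Prss8 was the other member past 2-fold, on the LIFR KO array. It encodes prostasin, the lipid-anchored protease that works with matriptase. Its brighter probe gave 689 ± 69.0 on the LIFR KO array, 272 ± 27.3 on the gp130 KO array and 222 ± 22.3 on the wildtype array. The LIFR KO array stood apart from the other two, which lay close together. The LIFR KO was 2.75-fold higher than wildtype (log2 1.46, 95% scanner interval 1.06 to 1.86), and 1.17% of all genes compared lay at or above this ratio. With normexp the log2 ratio was 1.24 and 17.7% of genes lay at or above it, and with normexp fitted without the stray signal these were 1.26 and 0.401%. The gp130 KO over wildtype log2 ratio was 0.32 with an interval of -0.08 to 0.72.

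The dimmer Prss8 probe gave 260.2 ± 26.4 on the LIFR KO array, 131 ± 13.3 on the gp130 KO array and 106 ± 10.9 on the wildtype array, again with the LIFR KO array apart. It was 2.18-fold higher in the LIFR KO (log2 1.12, 0.71 to 1.53), and its gp130 KO over wildtype log2 ratio was 0.33 (-0.08 to 0.74). Its spot on the wildtype array had a local background of 35.5 against a median of 23, while the brighter probe's spot had 25. Directly between the knockouts, gp130 KO over LIFR KO was 2.20-fold lower by the brighter probe (log2 -1.14, -1.54 to -0.74) and 1.73-fold lower by the dimmer one (log2 -0.79, -1.20 to -0.38). Prss8 thus differed from Tmprss11f in that its gp130 KO value was near the wildtype value.

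St14, the gene of matriptase, had nearly the same scaled value on all arrays. It gave 3314 ± 331 on the LIFR KO array, 3015 ± 302 on the gp130 KO array and 3015 ± 302 on the wildtype array. The log2 ratio to wildtype was -0.04 (-0.44 to 0.36) in the LIFR KO and 0.03 (-0.37 to 0.43) in the gp130 KO. These intervals do not show that the levels are equal, but they leave out a 2-fold difference as far as scanner error goes. With normexp the LIFR KO log2 ratio was -0.38, and fitted without the stray signal it was -0.000314. On the LIFR KO array the gene of its partner prostasin was thus 2.75-fold higher than wildtype while St14 was 1.03-fold lower.

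Spint1, the inhibitor of matriptase and prostasin, was also close to wildtype in both knockouts. Its brighter probe gave 2549 ± 255 on the LIFR KO array, 2049 ± 205 on the gp130 KO array and 2095 ± 209 on the wildtype array. The log2 ratios were 0.11 (-0.29 to 0.51) in the LIFR KO and -0.00415 (-0.40 to 0.40) in the gp130 KO. The other probe, at 932, 721 and 735 on the LIFR KO, gp130 KO and wildtype arrays, gave 0.17 and -0.00039. With normexp the brighter probe's log2 ratio in the LIFR KO was -0.25, and fitted without the stray signal it was 0.13.

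Prss22, which encodes a trypsin-like protease of airway epithelium also known as BSSP-4, gave 280.2 ± 28.3 on the LIFR KO array, 217 ± 21.8 on the gp130 KO array and 251 ± 25.2 on the wildtype array. The log2 ratios were -0.02 (-0.42 to 0.39) in the LIFR KO and -0.19 (-0.59 to 0.22) in the gp130 KO. With normexp the LIFR KO log2 ratio was 0.43, and fitted without the stray signal it was -0.09. Tmprss2, a transmembrane protease known from prostate and airway epithelium, gave 3.54, 2.04 and 3.28 on the LIFR KO, gp130 KO and wildtype arrays and was not well above background on any. Tmprss4, a protease of the same family, gave 4.25, 2.42 and 3.88 and was not well above background either. These signals lie under the detection limit of each array and have no order.

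Over the measured members, 2 of 6 were at least 2-fold higher in the LIFR KO and none was 2-fold lower, where 2.62% of 14541 genes were higher and 1.62% lower (4.24% either way). In the gp130 KO, 1 of 6 was at least 2-fold higher and none lower, where 0.98% of 14900 genes were higher and 0.785% lower (1.77% either way). Between the knockouts, gp130 KO over LIFR KO, none of 6 was 2-fold higher and 1, Prss8, was lower, where 1.29% of 14751 genes were higher and 2.05% lower (3.35% either way). The choice of Tmprss11f used the first 2 of these comparisons, so nothing is read from its part in the counts. The median log2 ratio of the 6 was 0.05 in the LIFR KO, beside -0.03 over all genes, and 0.01 in the gp130 KO, beside 0.03. It was -0.14 for gp130 KO over LIFR KO, beside 0.05. In the LIFR KO, Tmprss11f and Prss8 lay well above their median, Tmprss11e below it, and St14, Spint1 and Prss22 near 0.

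**Figure D4:**
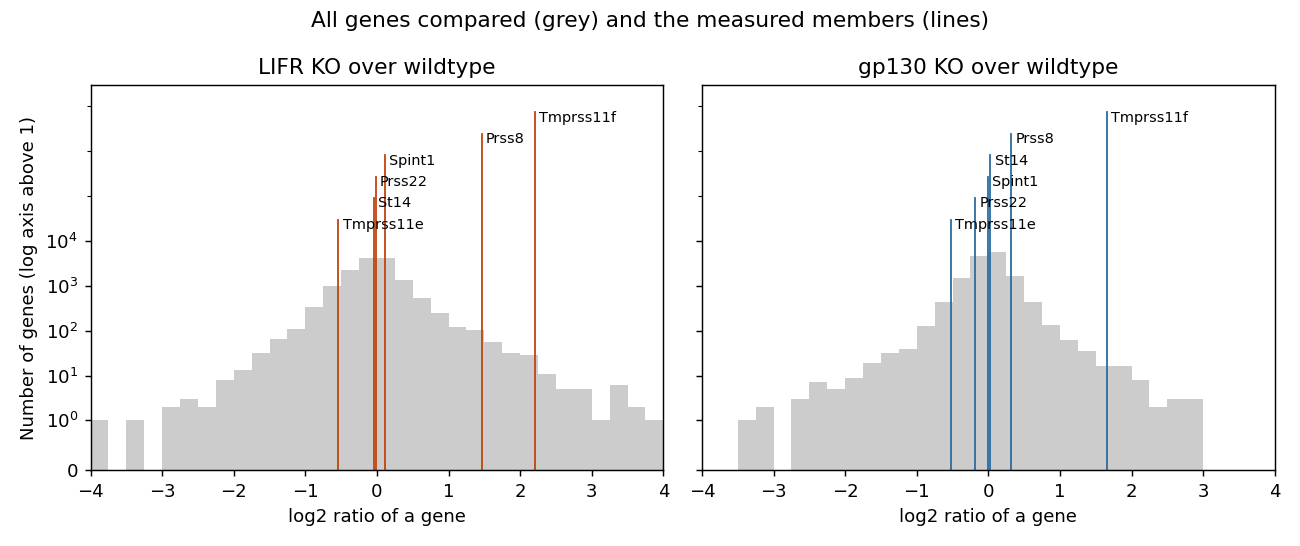
Number of genes (log axis above 1) by log2 ratio to the wildtype array, in grey for all genes compared, with a line for each of the 6 measured members (line heights carry no value) and 14 genes of the LIFR KO and 0 of the gp130 KO beyond the axis. Tmprss11f in both panels and Prss8 in the LIFR KO panel lie in the right tail.

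Other membrane-anchored serine proteases were mostly not detected. Of 16 such genes the array held 15, of which 12 were detected on none of the arrays and 1 on all, and 3 were measured in each comparison. None of these was counted as 2-fold in any comparison, beside 4.24%, 1.77% and 3.35% of all genes in the LIFR KO, the gp130 KO and between them. Prss27 and Tmprss11g in the LIFR KO were known only as bounds. The bound of Tmprss11g was 0. The median log2 ratio of the 3, bounds included, was -0.19 in the LIFR KO and -0.00401 in the gp130 KO. The member detected on all arrays was Tmprss3, known for its role in hearing, at 2854, 2818 and 2880.0 on the LIFR KO, gp130 KO and wildtype arrays. Prss27, the gene of marapsin, gave 15.2 on the LIFR KO array, where it was not well above background, 19.2 on the gp130 KO array and 27.3 on the wildtype array, so that it was at least 1.85-fold lower in the LIFR KO, and may be 2-fold or more.

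Among 9 genes of inhibitors, 5 were detected on all arrays. Spint2, the close relative of Spint1, gave 8746, 9023 and 8114 on the LIFR KO, gp130 KO and wildtype arrays, with log2 ratios to wildtype of -0.07 and 0.18 and a scanner error of 0.20 each. Another Spint2 probe, at 848, 738 and 826, gave -0.14 in each knockout, so the sign in the gp130 KO differed between the probes. Serpinb6a, an intracellular serpin, gave 33248, 30449.7 and 28207 with log2 ratios of 0.06 and 0.14. In the LIFR KO none of 7 measured genes was at least 2-fold higher and 1 was lower, beside 2.62% and 1.62% of all genes. The lower one was Serpina5, the protein C inhibitor, 2.02-fold lower with a signal of 23.0 against 41.1 on the wildtype array. Between the knockouts, gp130 KO over LIFR KO, 3 of 7 were at least 2-fold higher, Serpina5 (2.02-fold), Serpina1a (2.04-fold) and Serpine2 (at least 4.41-fold), beside 1.29% of all genes. In the gp130 KO over wildtype 1 of 6 inhibitor genes was at least 2-fold higher, beside 0.98% of all genes. This was Serpine2, protease nexin 1, at 64.7 against 17.8 on the wildtype array (3.71-fold), with 16.9 on the LIFR KO array, not well above background. Serpina5, Serpina1a and Serpine2 were named after their values were seen.

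Among 16 genes of substrates and partners, 15 were on the array and 10 were detected on every array. None of the 10 measured in the LIFR KO passed 2-fold, beside 4.24% of all genes, and the median log2 ratio was 0.05. Of 13 measured in the gp130 KO, 2 were at least 2-fold higher and 1 lower, with a median of -0.11. Of all genes, 0.98% were higher and 0.785% lower there. The lower one was Plau, the gene of urokinase, whose precursor matriptase can cleave, at 2023 on the LIFR KO array, 1318 on the gp130 KO array and 2954 on the wildtype array. It was 1.65-fold lower in the LIFR KO and 2.20-fold lower in the gp130 KO. The urokinase receptor gene Plaur gave 4418, 3253 and 5787, with log2 ratios of -0.56 and -0.80. The higher 2, Scnn1a and Mst1, were named after their values were seen. Scnn1a, the alpha subunit of the epithelial sodium channel, is known as a target of prostasin. It gave 49.5 on both knockout arrays and 25.1 on the wildtype array, 1.75-fold in the LIFR KO and 2.01-fold in the gp130 KO. Mst1, a growth factor gene, gave 22.6 on the gp130 KO array and was not well above background on the wildtype array, at least 2.19-fold higher. Another Mst1 probe was not well above background on any array. Epcam, whose product matriptase cleaves, gave 2339, 2031 and 1775, with log2 ratios of 0.22 in each knockout.

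Markers of cell types were set beside the members. Summed over their brightest probes and divided by the array's 75th percentile, the 10 epithelial markers came to 108, 105 and 98.3 on the LIFR KO, gp130 KO and wildtype arrays, the 12 squamous markers to 5.14, 5.88 and 5.66, the 10 embryonic stem cell markers to 2.07, 2.77 and 2.56, and the 10 fibroblast markers to 179.6, 192 and 169.8. The epithelial sum was mostly Krt18 and the fibroblast sum mostly Vim and Fn1, so these sums say little of the dimmer markers. The median log2 ratio to wildtype in the LIFR KO and the gp130 KO was 0.15 and 0.06 for the epithelial, -0.12 and 0.13 for the squamous, -0.51 and 0.04 for the embryonic stem cell and 0.03 and 0.37 for the fibroblast markers, and the embryonic stem cell median was 0.44 for gp130 KO over LIFR KO. In the LIFR KO, 1 of 10 epithelial and 1 of 8 measured fibroblast markers were at least 2-fold higher, beside 2.62% of all genes. They were the claudin gene Cldn4 (2.20-fold, at 322, 150.2 and 129.6) and the collagen gene Col1a1 (3.23-fold, at 257, 92.9 and 70.4). The gp130 KO was 1.18-fold and 1.34-fold above wildtype for these genes. In the gp130 KO the fibroblast marker Dcn, 1 of 8 measured, was 2.08-fold higher, at 33.6 against 16.5 on the wildtype array, beside 0.98% of all genes. The spot of this Cldn4 probe lay in stray signal on the LIFR KO array, and another Cldn4 probe, clear of stray signal, was 1.94-fold higher there. Cldn4 and Dcn were named after their values were seen. None of the 7 measured squamous or 6 measured embryonic stem cell markers passed 2-fold, beside 4.24% of all genes in the LIFR KO and 1.77% in the gp130 KO. Lin28a, at a log2 ratio of -0.62 in the LIFR KO, was among the stem cell markers lower there. The part of these cells in the results for the members was not tested.

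The genes whose pair of ratios to wildtype lay nearest to that of Tmprss11f were taken from 12686 genes well above background on every array and clear of stray signal, by the distance between the 2 log2 ratios, over 3 arrays. They were Cpt1a, Foxj1, Arhgap33os, Car15 and Grhl3, at distances of 0.27, 0.34, 0.43, 0.46 and 0.47. Cpt1a, for an enzyme of fatty acid import into mitochondria, gave 1639 on the LIFR KO array, 1220.3 on the gp130 KO array and 377 on the wildtype array. Foxj1, a regulator of motile cilia, gave 265, 151 and 42.4, Car15, a carbonic anhydrase, 375, 345 and 94.5, and Grhl3, a grainyhead-like factor of the epidermal barrier, 354, 148 and 66.8, in the same order of arrays. Arhgap33os gave 53.3, 29.5 and 12.2. In each of them the wildtype array was the lowest, as the choice of nearest genes fixes. After scaling, the LIFR KO array was the highest in all of them but Car15, with log2 ratios of 1.81 in the LIFR KO and 1.90 in the gp130 KO.

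**Figure D5:**
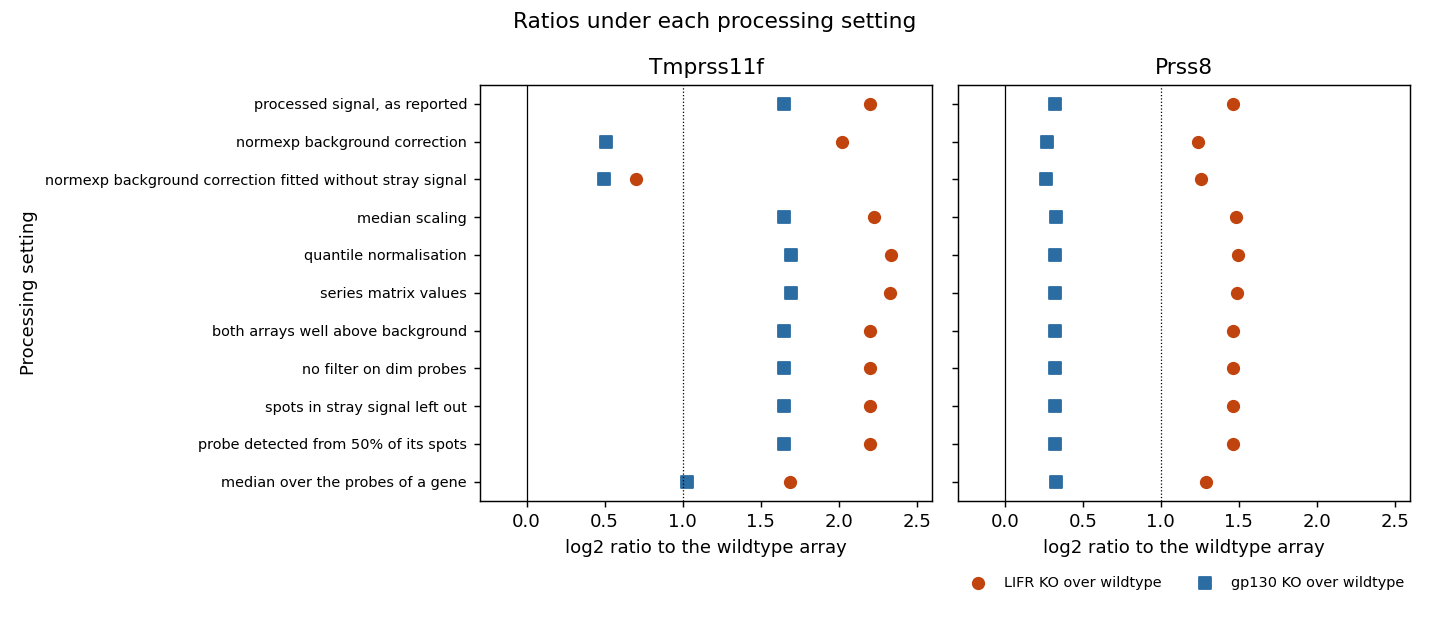
Log2 ratio to the wildtype array of Tmprss11f and Prss8 under the reported setting and each of 10 alternatives, with a dotted line at 2-fold. The ratios of Tmprss11f lie above 0 throughout. They are under 2-fold with normexp fitted without the stray signal, at 0.70 for the LIFR KO and 0.50 for the gp130 KO. With plain normexp the gp130 KO ratio, at 0.51, is under 2-fold too. The Prss8 ratio of the LIFR KO stays between 1.24 and 1.49.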

How the data were processed

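Total RNA of cells of 3 genotypes was labelled with Cy3 and hybridised to single-colour arrays, 1 per genotype, per the labels' protocols. Per the file headers, arrays of design 026655 (mm9) were read by Feature Extraction 11.0.1.1 (protocol GE1_1100_Jul11), whereas version 9.1 stands in the submitters' processing notes. All 3 arrays shared 1 slide and 1 scan, and any batch of culture, RNA or labelling is unknown. The deposited intensity is the background-corrected signal that the software writes for each spot, per the file headers. The deposited flags, another kind of value, are 0 or 1. The authors' log2 values in the series matrix have a median of 5.38 in every column and a scale found by comparison with the processed signal, with the normalisation method not given in the sources used here.

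Outlier spots were left out, spots of a probe averaged and log2 values centred on the 75th percentile of the array's 43020 non-control spots. A probe counted as well above background where all its spots were. Accessions were matched without versions to the RefSeq table of GRCm38.p6, which named 27228 of 39429 probes. A gene was read from its brightest probe and compared where well above background on at least 1 of 2 arrays, with a lower bound against the lowest detected signal where the other was not. Genes at least 2-fold apart were counted. No test was possible. Scaling and subtraction of arrays were run on simulated data with noise below the scanner error and large planted changes. That run did not cover the detection filter, the bounds or the choice of probe. Normexp used the median spot signal, since the files hold no mean signal (limma 3.58.1, R 4.3.3; Python 3.11.15).

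The genes named are all members, the 2 brightest genes of each list and those 2-fold the same way also under normexp fitted without stray signal, the 5 genes nearest to Tmprss11f, and Lifr and Il6st. The rest of the Tmprss11 run, Serpina5, Serpina1a, Serpine2, Scnn1a, Mst1, Cldn4, Dcn, Col1a2, Col3a1, Thy1, Pdgfra, Nanog, Dppa5a, Esrrb, Pou5f1 and markers not detected were named outside this rule, after their values were seen. The members and lists were chosen with earlier results of these data known.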

Additional observations from a re-analysis of the deposited data

How the results depend on the processing

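No paired analysis was possible because each genotype had 1 array, and no replicate could be left out. Of 10 alternatives run on each of 12 main values, 106 of 120 stayed within the tolerance (1.5 times for a count, 1 scanner error for a ratio) and 14 did not. The 106 include values fixed in advance. The measured members' brightest probes had 1 spot each, were clear of stray signal and were detected on every array. Leaving out stray spots, detection from 50% of spots and detection on both arrays thus could not change their values. Tmprss11f kept its direction under all 10, of which these and the setting with no filter left its ratio as it was. With normexp, its log2 ratio was 2.02 for the LIFR KO over wildtype, 0.51 for the gp130 KO over wildtype and -1.51 for gp130 KO over LIFR KO; fitted without stray signal it was 0.70, 0.50 and -0.21 for the LIFR KO over wildtype, gp130 KO over wildtype and gp130 KO over LIFR KO. These settings add an offset of 50 to every signal, more than this probe's processed signal of 19.4 on the wildtype array. How much of the change came with the offset was not tested. With the median over the probes it was 1.69 and 1.03 in the LIFR KO and gp130 KO, where the dimmer probe entered as a lower bound. The count of members 2-fold higher became 1 in the LIFR KO with normexp without stray signal, and 0 in the gp130 KO with either normexp. The count lower became 1 in the LIFR KO with plain normexp (Tmprss11e, at -1.01). For gp130 KO over LIFR KO it became 0 with normexp without stray signal and with the median over probes, where the Prss8 log2 ratio was -0.99 and -0.96; with plain normexp Prss8 was also under 2-fold at -0.97, and the 1 member counted was Tmprss11f. The median of the members for that comparison was -0.45 with no filter on dim probes, since undetected members then enter. Plain normexp put 3296 genes 2-fold higher in the LIFR KO against 381 as reported and 112 when fitted without stray signal. The lower genes there numbered 94 and 64 against 236. For the gp130 KO the normexp settings gave 10 and 9 genes higher against 146, and 33 lower in each against 117. For gp130 KO over LIFR KO they gave 47 and 36 higher against 191, and 3242 and 74 lower against 303. With both arrays well above background 253 and 177 genes were higher and lower in the LIFR KO, 78 and 65 in the gp130 KO, and 124 and 184 for gp130 KO over LIFR KO; with no filter they were 650 and 1018, 656 and 593, and 969 and 567. Signal over background left 4 members with no ratio. For the ratios of the other members and the counts over all genes, 178 results stayed within the tolerance and 32 did not. Among the 32, the Tmprss11e log2 ratio for gp130 KO over LIFR KO became 0.51 with plain normexp.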

Other observations

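In the authors' log2 table, Tmprss2, Tmprss4, Tmprss11a and Tmprss11d had 1 shared value on each array, 2.34 on the LIFR KO and 2.32 on the gp130 KO and on the wildtype array, so that these genes stand at a floor there. The dimmer Tmprss11f probe was above that floor in the knockouts, at 4.74 on the LIFR KO and 3.75 on the gp130 KO array, and at the floor on the wildtype array.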
